A study of Mus musculus with 12 samples.

Results

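Zc3h7b and 8 related genes of the CCCH zinc finger type were followed through 3 ORFtag screens in mouse embryonic stem cells. The 9 genes (Zc3h7b, Zc3h7a, Zc3h4, Zc3h6, Zc3h8, Zc3h3, Zc3h14, Zc3h18 and Zc3h10) were chosen by gene name among the 20409 genes of the deposited screen tables. In ORFtag, retroviruses scatter over the genome a cassette that starts its own transcript with a tag at its end and splices it into the next gene downstream. The cell then makes that gene's protein joined to the tag. All libraries came from diploid cells of 1 clonal reporter line per screen, so each line stands for 1 clone. The cells were otherwise wild-type, apart from a Cre transgene in 1 line described below. The activator line carried 7xTetO-pMYLPF-Puro-IRES-GFP and the repressor line pEF1-BFP-7xTetO-pPGK-Puro-IRES-GFP, both at a stably expressed locus on chromosome 15. Their tag was TetR, which brings the fusion protein to the TetO sites. The line for post-transcriptional gene regulation (PTGR) carried a randomly integrated Puro-IRES-GFP-10xBoxB, and its tag was λN, a phage peptide that binds boxB hairpins in the reporter mRNA. The activator sort took cells in which GFP had gone up and the repressor sort those in which it had gone down. For PTGR, cells of lowered GFP were collected over several rounds, with a Cre step in between to keep those whose change could be reversed. Each screen has 2 sorted and 2 unsorted libraries, 12 in all, with no further treatment difference given.

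CCCH zinc fingers are small zinc-binding folds that mostly contact single-stranded RNA, and proteins that carry them take part in RNA processing, export, decay and translation. Several of these genes work in the nucleus. Zc3h4 forms with Wdr82 the restrictor complex, which ends non-coding transcription early, and Zc3h6 is its paralogue. Zc3h18 bridges the cap-binding complex and the nuclear exosome, Zc3h3 acts in polyadenylation and mRNA export, Zc3h14 binds poly(A) tails, and Zc3h8 belongs to the little elongation complex of snRNA genes. Zc3h7a and Zc3h7b are paralogues that bind microRNA precursors, and human ZC3H7B is known from the ZC3H7B-BCOR fusion of endometrial stromal sarcoma. Zc3h10 is linked to mitochondrial function.

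The count used is the number of distinct insertion positions at most 200 kb from the exon that receives the tag. It is neither a number of cells nor an amount of fusion protein. An insertion is said to feed the exon to which its position assigns it, the closest one downstream. Splicing itself was not measured. Sorted libraries held 14705 to 60980 such insertions and unsorted libraries 54088 to 233799. Together the 6 unsorted libraries, called the background below, held 1022126. All 3 comparisons with the background share these 6 libraries. Intervals are 95% intervals and cover counting error only.

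The splice acceptors of the receiving exons are shown first, because they decide how much of each protein a fusion keeps. Each line gives the last 15 bases of the intron in lower case and the first 15 bases of the exon in capitals, 5′ to 3′, read from the GRCm38.p6 (mm10) reference. Zc3h7b has 1 acceptor (chr15:81767980-81768009, plus strand), Zc3h4 has 2 main ones (chr7:16402440-16402469 and chr7:16416758-16416787, both plus strand), and that of Zc3h6 (chr2:128991076-128991105, plus strand) is shown for comparison with its paralogue.
Zc3h7b exon 2: atgctctccctgcagACACTGATGGAGAGG
Zc3h4 exon 2, first acceptor: ctttctccttcacagACCCTCCTTTGCCTT
Zc3h4 exon 2, second acceptor: gggcttggcttgcagGGAAGATGGTGAGTT
Zc3h6 exon 2: tgttgttttctacagAGAAGATGGTGAATT
The start codon of Zc3h7b begins after 6 untranslated bases of exon 2, so a fusion spliced there keeps the whole coding sequence of 982 codons. At the first acceptor of Zc3h4 all 1180 codons of that transcript are kept, after 24 untranslated bases. At the second acceptor 14 coding bases lie upstream and 99.6% of the 1255-codon sequence is kept. The coding sequence thus meets the tag in a different reading frame at the 2 acceptors of Zc3h4. The cassette was used as a mixture of 3 frames, and the lists do not give which of them an insertion carried. The first 15 exon bases of the second acceptor of Zc3h4 and of Zc3h6 are identical at 13 of 15 positions.

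Cassette insertions reached all 9 genes in unsorted cells, at very different rates. Zc3h3 on chromosome 15 (75754430 to 75841915, minus strand) had 217 background insertions, Zc3h4 169, Zc3h7b 149, Zc3h14 58, Zc3h8 37, Zc3h6 36, Zc3h18 17, Zc3h7a 6 and Zc3h10 5. Per 10000 insertions of a library, the mean over the 6 unsorted libraries was 2.23 ± 0.590 for Zc3h3, 1.88 ± 0.901 for Zc3h4 and 1.40 ± 0.495 for Zc3h7b (SD, n = 6). The ranges over the 6 libraries were 1.53 to 3.14, 1.36 to 3.70 and 0.740 to 1.86 in that order and overlapped one another. Zc3h14 averaged 0.584 ± 0.244. Its range of 0.283 to 0.912 lay below those of Zc3h3 and Zc3h4 but overlapped with that of Zc3h7b. Zc3h6 and Zc3h8 averaged 0.351 ± 0.103 and 0.350 ± 0.170, and their ranges overlapped with each other and with that of Zc3h14. Zc3h18, Zc3h7a and Zc3h10 averaged 0.164 ± 0.0847, 0.0508 ± 0.0280 and 0.0421 ± 0.0372. The last 2 differ by less than the spread between libraries. Insertion rates also depend on gene length and on open chromatin near the start of a gene, and no correction for either was made here.

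**Figure D1:**
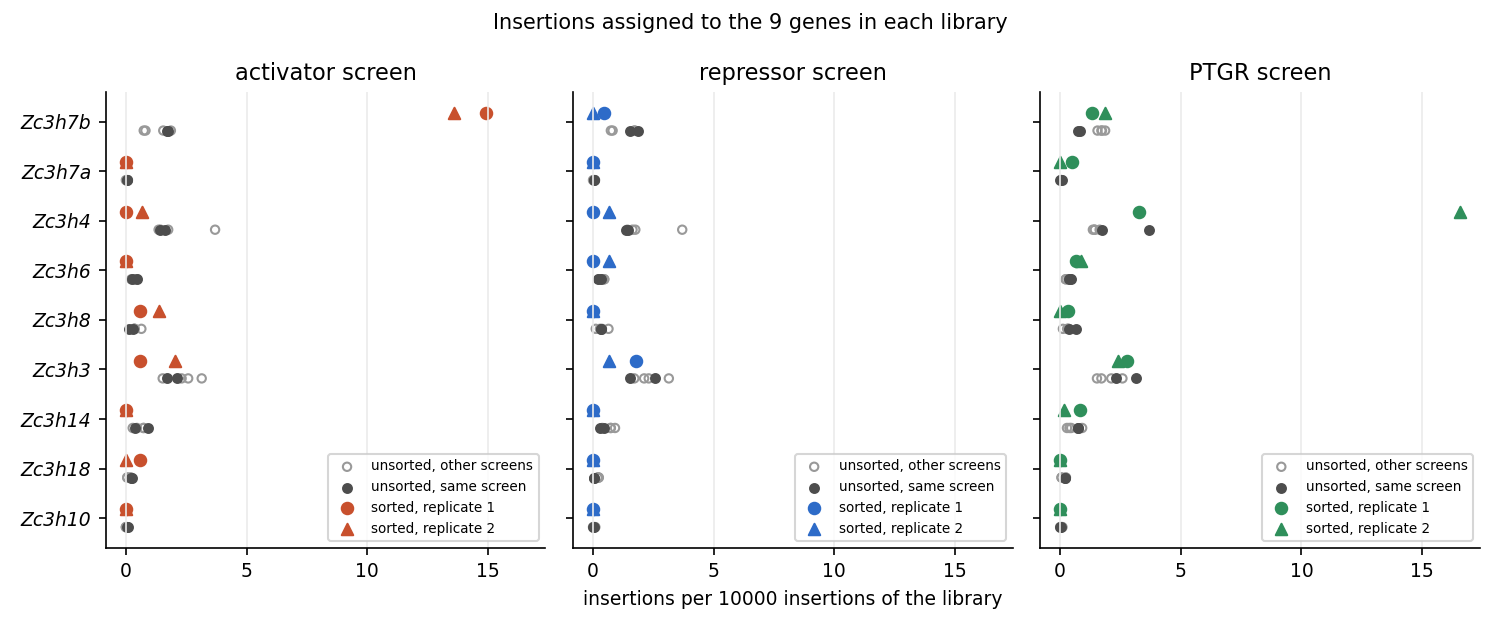
Insertions assigned to each of the 9 genes per 10000 insertions of the library (x axis) in the activator, repressor and PTGR screens, with sorted libraries in colour (circle, replicate 1; triangle, replicate 2) and unsorted libraries in grey (filled, same screen; open, other screens). Zc3h7b stands at 14.9 and 13.6 in the activator sorted libraries and Zc3h4 at 3.28 and 16.6 in the PTGR sorted libraries, while the highest unsorted value of any gene is 3.70.

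Zc3h7b was the only one of the 9 genes called in the activator screen, Zc3h4 the only one in the PTGR screen, and none was called in the repressor screen. Genes with 3 or more sorted insertions were tested against the background by one-sided Fisher's exact test, and a call needed a log2 odds ratio of 1 or more with its adjusted p under 0.001. Of all genes tested, the activator screen called 4.64% (132 of 2842), the repressor screen 8.18% (192 of 2346) and the PTGR screen 0.666% (62 of 9303). Of the 9 genes, 3, 1 and 6 reached the minimum of 3 sorted insertions in these screens, and 4, 5 and 2 had no sorted insertion at all. The genes that reached the minimum did so partly through their sorted counts, so no share of them is compared with the background.

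Zc3h7b was enriched in both activator sorted libraries. It took 26 of 17397 insertions in sorted replicate 1 and 20 of 14705 in replicate 2, against 30 and 36 in the far deeper unsorted libraries of the same screen. Per 10000 insertions this is 14.9 and 13.6 in the sorted libraries and 1.71 and 1.73 in the unsorted libraries of the screen. The 2 sorted values lie close together and above all 6 unsorted libraries, with no overlap. Each sorted library held 7.84 to 8.74 times the rate of each unsorted library of the screen. Over both replicates there were 46 sorted insertions where the background predicts 4.68, a log2 odds ratio of 3.30 ± 0.243 (SE) with adjusted p = 1.06e-25 by one-sided Fisher's exact test. Each replicate alone was also called, at 3.36 ± 0.307 (Fisher's exact test, adjusted p = 1.43e-15) and 3.22 ± 0.344 (Fisher's exact test, adjusted p = 7.12e-12), where 5.8% and 13.4% of genes tested were called. The study singled out Zc3h7b from these same samples, so these tests are not independent evidence for it.

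The enrichment also passed a test that uses the spread between libraries. With edgeR's quasi-likelihood test of the 2 sorted against the 2 unsorted activator libraries, the log2 fold change of Zc3h7b was 3.01 with adjusted p = 1.84e-14. At this threshold of 0.05, 1.54% of 8000 genes were higher in sorted cells. Leaving out either unsorted library kept the fold change (3.22 without replicate 1 and 3.30 without replicate 2) but took the adjusted p of edgeR to 0.163 and 0.121. Of the 46 sorted insertions 45 were at distinct positions, 1 position was in both sorted replicates, and 3 of the 20 in replicate 2 were also in unsorted replicate 2. Without positions seen in other libraries the log2 odds ratio was 3.50.

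Insertions assigned to the gene with the strand reversed, which point away from it and cannot splice into it, showed no such rise at Zc3h7b. There were 4 and 2 of them in the activator sorted libraries against 146 in the background (log2 odds ratio 0.48 ± 0.601, adjusted p = 1.00 by one-sided Fisher's exact test). None of the 9 genes was called for reversed insertions in any screen, where activator, repressor and PTGR calls made up 3.14%, 5.61% and 0.5% of genes tested. The nearest to the threshold was Zc3h14 in the PTGR screen, with 10 and 6 reversed sorted insertions against 54 (log2 odds ratio 1.35 ± 0.411, adjusted p = 0.0939 by Fisher's exact test).

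**Figure D2:**
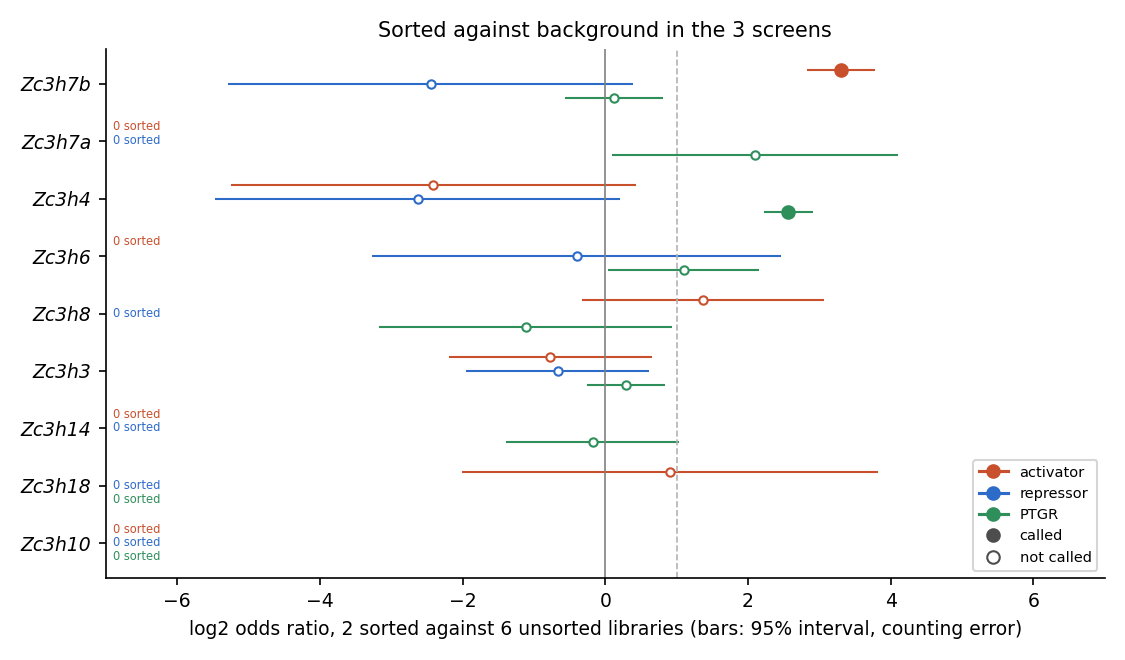
Log2 odds ratio of the 2 sorted libraries of a screen against the 6 unsorted libraries (x axis) with its 95% interval for the 9 genes, coloured by screen, filled where called; the dashed line marks the threshold of 1 and "0 sorted" a gene with no sorted insertion. Zc3h7b at 3.30 in the activator screen and Zc3h4 at 2.57 in the PTGR screen are the 2 filled points.

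In the repressor and PTGR screens Zc3h7b was not called. The repressor sorted libraries held 1 and 0 insertions at Zc3h7b where 5.46 were predicted, against 27 and 33 in the unsorted libraries. This log2 odds ratio of -2.45 has an interval from -5.29 to 0.39, and the adjusted p of a two-sided Fisher's exact test was 0.714, so a fall was not detectable at this depth. By edgeR against the repressor unsorted libraries the log2 fold change was -2.32 with adjusted p = 0.340, where 1.14% of 7688 genes were lower in sorted cells and 2.58% higher. The PTGR sorted libraries held 8 and 11 insertions where 17.4 were predicted, a log2 odds ratio of 0.12 ± 0.351 with adjusted p = 0.880 by Fisher's exact test. Its interval from -0.56 to 0.81 lies below the activator value. Against the PTGR unsorted libraries alone, with 23 insertions, the log2 odds ratio was 0.99 ± 0.447 (Fisher's exact test, adjusted p = 0.527). Per 10000 insertions, the PTGR sorted libraries stood at 1.31 and 1.88, the PTGR unsorted libraries at 0.813 and 0.740, and the other 4 unsorted libraries between 1.55 and 1.86. The PTGR unsorted libraries were thus the lowest of the 6 at this gene.

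The differences between screens were tested directly, on all 12 libraries. The change of Zc3h7b from unsorted to sorted cells was larger in the activator than in the repressor screen by 5.35 on the log2 scale (edgeR interaction, adjusted p = 3.96e-06), a difference past the threshold for 0.57% of 12809 genes in this direction. Against the PTGR screen the difference was 1.79 with an edgeR adjusted p of 0.309, which does not pass; 0.586% of genes passed in this direction. The contrast of Zc3h7b between the DNA-tethering activator screen and the RNA-tethering PTGR screen is therefore not shown by this test. It takes each screen against its own unsorted libraries.

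All insertions assigned to Zc3h7b fed the same exon. Exon 2 received 46 of 46 sorted insertions in the activator screen and 149 of 149 in the background, and all 215 insertions over the 12 libraries. A fusion spliced to this exon would have the whole coding sequence downstream of the tag. Neither the splicing nor the reading frame of single fusions was observed.

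The distance from the insertion to exon 2 did separate the libraries. Zc3h7b lies on chromosome 15 (81745057 to 81796260, plus strand, GRCm38) and its annotated start is 22.9 kb before exon 2. In the activator sorted libraries the median distance was 23.7 kb in replicate 1 and 23.0 kb in replicate 2. In the 6 unsorted libraries it was between 62.1 and 68.4 kb. Insertions within 50 kb of exon 2 made up 26 of 26 (Wilson interval 87.1% to 100%) and 18 of 20 (90%, 69.9% to 97.2%) in the sorted libraries. In the unsorted libraries of the screen they were 9 of 30 (30%, 16.7% to 47.9%) and 16 of 36 (44.4%, 29.5% to 60.4%), and over the whole background 53 of 149 (35.6%, 28.3% to 43.5%). The PTGR sorted libraries had 4 of 8 and 3 of 11 within 50 kb, like their unsorted libraries with 8 of 19 and 1 of 4.

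Most of the background at Zc3h7b lay farther from exon 2 than nearly all activator sorted insertions. Within 25 kb of exon 2 the activator sorted libraries held 29 insertions where 0.817 were predicted (log2 odds ratio 5.15 ± 0.390). From 25 to 50 kb there were 15 against 0.848 (4.15 ± 0.465). From 50 to 100 kb there were 2 against 3.02 (-0.59 ± 1.03), and none lay beyond in any library. In the PTGR screen the same 3 zones held 4, 3 and 12 sorted insertions where 3.04, 3.16 and 11.2 were predicted. With 50 kb as the maximum distance for all genes, Zc3h7b had 44 sorted and 53 background insertions and a log2 odds ratio of 4.55 (adjusted p = 1.56e-36 by Fisher's exact test). The zones were chosen after the values were seen and carry no test of their own.

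**Figure D3:**
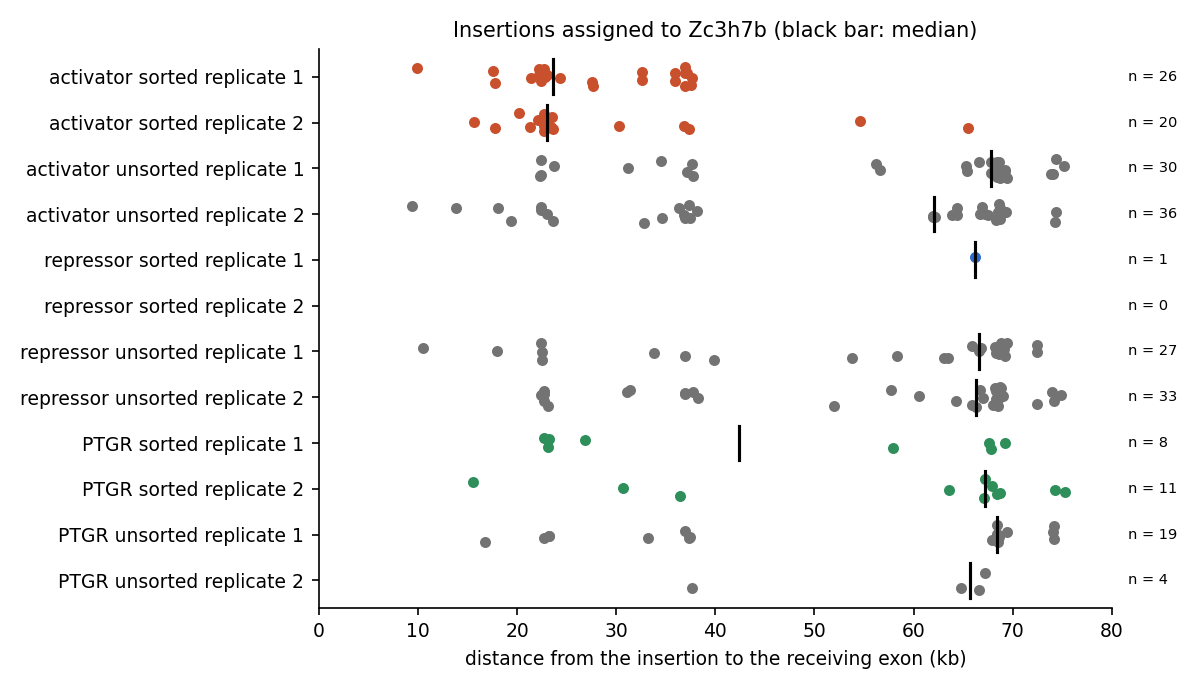
Distance in kb from each insertion assigned to Zc3h7b to exon 2 (x axis) in the 12 libraries, 1 point per insertion, with sorted libraries in colour, unsorted libraries in grey, the median as a black bar and the number of insertions at the right. In the activator sorted libraries 44 of 46 points lie within 50 kb, whereas 96 of 149 background points lie between 50 and 75.1 kb.

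By annotation, 21 of the 46 activator sorted insertions lay inside Zc3h7b, 14 of them in introns and 7 in exons, compared with 20 of 149 in the background. Rangap1 (Ran GTPase-activating protein), which lies on the opposite strand and overlaps the start of Zc3h7b, contained 31 of the 46 and 51 of the 149. Insertions outside any protein-coding gene were 1 of 46 in the activator sorted libraries and 69 of 149 in the background. Chadl, a chondroadherin-like gene on the minus strand, contained 15 background insertions and no activator sorted one.

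Zc3h7b sits among genes with their own signals, which were looked up within 200 kb. Ep300, the p300 histone acetyltransferase, ends 93.0 kb upstream on the same strand and had 389 activator sorted insertions against 290 in the background (log2 odds ratio 5.43 ± 0.112). It was called in the PTGR screen too, with 177 sorted insertions (2.39 ± 0.138, Fisher's exact test, adjusted p = 4.47e-52). L3mbtl2, a Polycomb-related repressor gene that lies between Ep300 and Zc3h7b, had 0 activator sorted insertions and was called in the repressor screen, with 10 against 41 (2.73 ± 0.509, Fisher's exact test, adjusted p = 1.34e-04). Tef, a bZIP transcription factor gene 6.16 kb downstream, was called in the activator screen from 4 sorted and 3 background insertions (5.41 ± 1.10, Fisher's exact test, adjusted p = 6.08e-04). Chadl and Rangap1, the genes of the other strand beside the Zc3h7b insertions, were at 0.02 ± 0.846 and 0.95 ± 0.743 in the activator screen and were not called. Xrcc6, Pmm1, Phf5a, Tob2, Csdc2 and Desi1 were not called in any screen.

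**Figure D4:**
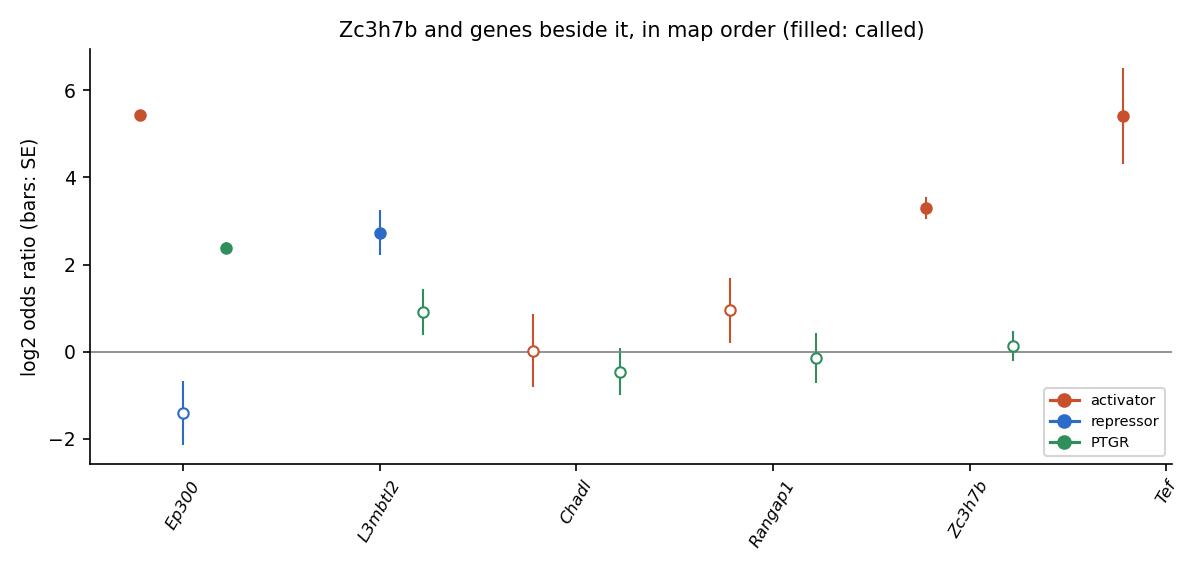
Log2 odds ratio with its SE (y axis) of Zc3h7b and the genes from Ep300 to Tef in map order (x axis), coloured by screen, for genes with at least 3 sorted insertions; filled points were called. Ep300 at 5.43, Zc3h7b at 3.30 and Tef at 5.41 are filled in the activator screen, and Chadl and Rangap1 between them are not.

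The position of the TetO reporter on chromosome 15 relative to Zc3h7b is not given in the sources used here, and its part in the result was not tested. Zc3h3, the other of the 9 genes on that chromosome, showed no rise in the activator screen. It had 1 and 3 sorted insertions where 6.82 were predicted (log2 odds ratio -0.77 ± 0.728). Its distance from the reporter is not given either, so nothing about the reporter follows from this value.

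Zc3h7a, the paralogue of Zc3h7b, could not be compared at this depth. It had 0 insertions in all 4 sorted libraries of the activator and repressor screens and 6 in the background, where 0.188 and 0.220 were predicted. A count of 0 allows up to 0.935 and 0.801 per 10000 (3 counts over both sorted libraries), far above its background mean of 0.0508. With its background, 5 activator sorted insertions would have been needed for a call. In the PTGR screen it had 3 and 0 sorted insertions (log2 odds ratio 2.10 ± 1.02, adjusted p = 0.477 by Fisher's exact test), and 2 of the 3 fed exon 14, which leaves 47.8% of the coding sequence. These 2 lie within 5 bp of each other, and merged into 1 they leave the gene with 2, under the minimum tested. All 6 of its background insertions fed exon 2, at chromosome 16 (gene 11136592 to 11176393, minus strand), where the coding sequence is whole.

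Zc3h4 was called in the PTGR screen, but its enrichment came mainly from 1 library. It took 20 of 60980 insertions in sorted replicate 1 and 97 of 58560 in replicate 2, against 41 of 233799 and 20 of 54088 in the unsorted libraries. Per 10000 insertions the sorted libraries stood at 3.28 and 16.6 and the unsorted libraries at 1.75 and 3.70. Sorted replicate 1 thus lay below unsorted replicate 2, and the groups overlapped. Sorted replicate 2 held 4.48 times the rate of unsorted replicate 2, and sorted replicate 1 held 1.87 times that of unsorted replicate 1.

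Summed over replicates, Zc3h4 had 117 PTGR sorted insertions where 19.8 were predicted, a log2 odds ratio of 2.57 ± 0.174 with adjusted p = 4.37e-38 by Fisher's exact test. Replicate 2 alone was called at 3.33 ± 0.184 (Fisher's exact test, adjusted p = 4.05e-50), where 0.928% of genes were called. Replicate 1 alone was at 0.99 ± 0.341 (Fisher's exact test, adjusted p = 0.129) and was not called; 0.758% of genes were. In edgeR's test of the 2 sorted against the 2 unsorted PTGR libraries the log2 fold change was 2.10 with adjusted p = 0.419, where 0.342% of 8491 genes passed. By that test the rise did not pass, but it did when all genes with at least 1 insertion were kept (1.94, edgeR adjusted p = 2.05e-04). The rise also passed when same-numbered libraries were treated as pairs, with values given in the closing section. Without sorted replicate 2 the edgeR fold change was 0.56 with adjusted p = 0.999.

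PTGR sorted replicate 2 differed from the other libraries in its lists as well. In it 12.7% of positions were listed more than once, which was at most 0.291% in each other library apart from the repressor unsorted ones. Merging positions within 5 bp left 97 sorted and 161 background insertions at Zc3h4 and a log2 odds ratio of 2.38. Before merging, sorted replicate 2 alone had 97 positions, of which 12 recurred in unsorted replicate 2 and 2 in unsorted replicate 1. Of the 20 positions of sorted replicate 1, 8 recurred in unsorted replicate 1 and 0 in replicate 2. Without positions seen in other libraries the log2 odds ratio was 2.76. The sorted replicates shared 1 position, so 116 distinct positions carried the enrichment. The part of shared and repeated positions in the result beyond these values was not tested.

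In both TetR screens Zc3h4 was nearly absent from sorted cells. The activator sorted libraries held 0 and 1 insertions where 5.31 were predicted, and the repressor sorted libraries 0 and 1 where 6.20 were predicted. Two-sided Fisher's exact tests gave adjusted p of 1.00 and 0.501, so neither was shown to be below the background. The change from unsorted to sorted cells was larger in the PTGR than in the activator screen (activator minus PTGR -4.63, edgeR interaction, adjusted p = 5.28e-04) and larger than in the repressor screen by 4.41 (edgeR interaction, adjusted p = 0.00181). In these directions 0.125% and 0.453% of genes passed. Both differences ended without PTGR sorted replicate 2 (edgeR adjusted p = 0.574 and 0.421). Without PTGR unsorted replicate 1 the edgeR adjusted p were 0.0569 and 0.0747. Without activator sorted replicate 1 the first was at 0.156, and without repressor sorted replicate 1 the second was at 0.191.

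Within Zc3h4 (chromosome 7, 16400910 to 16437696, plus strand) a larger share of PTGR sorted than of background insertions lay in introns, a difference that was not tested. Introns of the gene held 101 of 117 sorted insertions (16 of 20 in replicate 1 and 85 of 97 in replicate 2), compared with 96 of 169 in the background. In the unsorted libraries of the screen they held 22 of 41 and 15 of 20. Upstream of the gene lay 14 of 117 sorted insertions and 70 of 169 in the background. The median distance to the receiving exon, 9.92 and 10.1 kb in the sorted libraries, was within the range of the unsorted libraries (0.970 to 12.3 kb).

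Insertions were assigned to the 2 acceptors of exon 2 in different proportions in sorted and unsorted cells. The assignment follows from position alone, so this share is not independent of the intron share above. Use of the acceptors in splicing was not measured. The second acceptor received 11 of 20 PTGR sorted insertions in replicate 1 (55.0%, Wilson interval 34.2% to 74.2%) and 56 of 97 in replicate 2 (57.7%, 47.8% to 67.1%). In the 6 unsorted libraries it received between 20.8% and 38.2%, and 56 of 169 in all (33.1%, 26.5% to 40.5%). Both sorted libraries therefore lay above all 6 unsorted ones. The interval of replicate 1 overlaps with all of theirs, and that of replicate 2 with most of theirs. This split was noticed in the data and was not tested. Only 5 background insertions and no sorted one fed a later exon of Zc3h4.

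**Figure D5:**
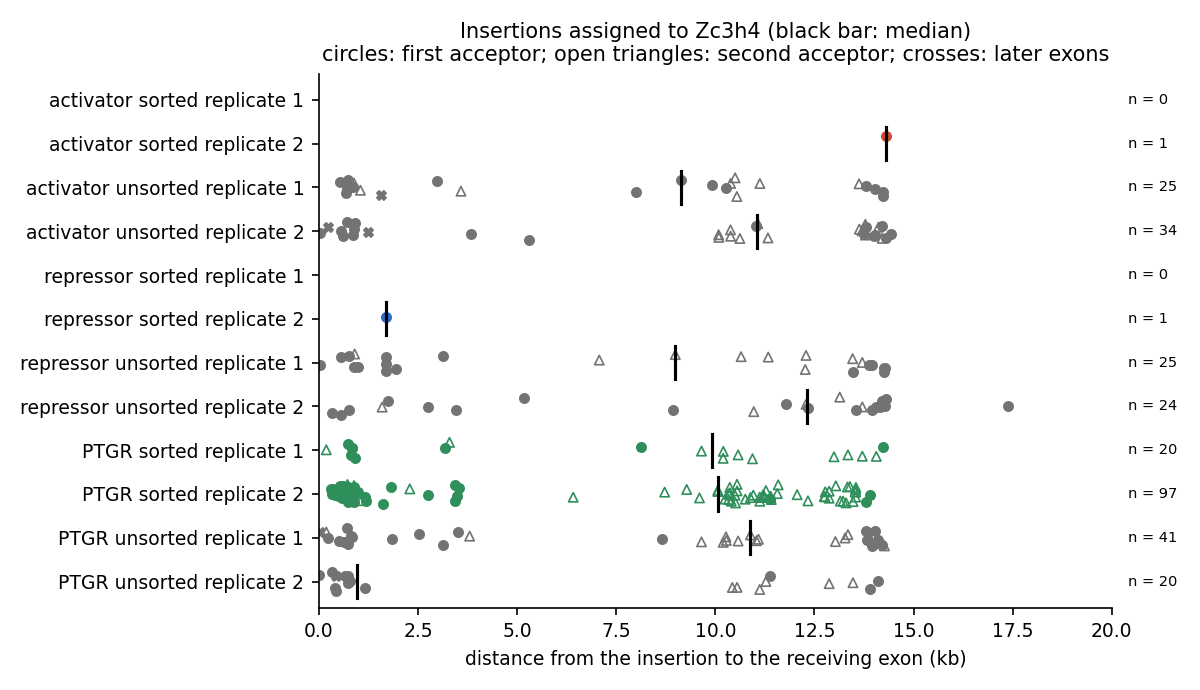
Distance in kb from each insertion assigned to Zc3h4 to its receiving exon (x axis) in the 12 libraries, with sorted libraries in colour and unsorted in grey, filled circles for the first acceptor of exon 2, open triangles for the second, crosses for later exons, and the median as a black bar; 11 insertions lie beyond the axis. PTGR sorted replicate 2 has 97 insertions, 56 of them open triangles.

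Of the 9 genes of the tables within 200 kb of Zc3h4, none was called in any screen. Sae1, a SUMO-activating enzyme gene on the opposite strand upstream, had 13 PTGR sorted insertions against 198 (log2 odds ratio -0.83 ± 0.413). Bbc3, the apoptosis gene also known as Puma, had 10 against 126 (-0.56 ± 0.474). Arhgap35 and Dhx34 had 4 and 3 PTGR sorted insertions. Ccdc9, C5ar1, C5ar2, Tmem160 and Npas1 had at most 2.

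Zc3h6, the paralogue of Zc3h4, was not called. It had 4 and 5 PTGR sorted insertions where 4.21 were predicted, a log2 odds ratio of 1.10 ± 0.538 (interval 0.04 to 2.15, adjusted p = 0.428 by Fisher's exact test). Per 10000 insertions the PTGR sorted libraries stood at 0.656 and 0.854, both above the highest unsorted library at 0.470. With its background, 18 sorted insertions would have been needed for a call. All 46 insertions at Zc3h6 (chromosome 2, 128967402 to 129018563, plus strand) fed exon 2, where 99.1% of the coding sequence is kept.

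The remaining nuclear factors showed no call, with different precision. Zc3h3 was the best covered, with 17 and 14 PTGR sorted insertions where 25.4 were predicted (log2 odds ratio 0.29 ± 0.277, interval -0.25 to 0.83, adjusted p = 0.677 by Fisher's exact test). In the repressor sort it had 4 and 1 where 7.96 were predicted (-0.67 ± 0.653). A rise of Zc3h3 to the log2 odds ratio of Zc3h7b or of Zc3h4 lies outside each of its 3 intervals, whose highest bound was 0.83. Zc3h14 had 5 and 1 PTGR sorted insertions where 6.78 were predicted (-0.18 ± 0.619) and none in the 4 other sorted libraries.

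Zc3h8 had 1 and 2 activator sorted insertions where 1.16 were predicted (log2 odds ratio 1.37 ± 0.866, adjusted p = 0.887 by Fisher's exact test), none in the repressor sort, and 2 and 0 in the PTGR sort. Its rate in the activator sorted libraries, 0.575 and 1.36 per 10000, overlapped with the range of the unsorted libraries (0.114 to 0.642). Zc3h18 had 1 sorted insertion in all, in activator replicate 1, and its 17 background insertions were spread over 8 exons, from exon 2 to exon 19. Zc3h10 had no sorted insertion in any screen, where 0.157, 0.183 and 0.585 were predicted. For the genes not called, 5 to 21 sorted insertions would have been needed in the activator screen, 5 to 22 in the repressor screen and 9 to 53 in the PTGR screen.

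Apart from Zc3h18, Zc3h10 and Zc3h7a, nearly all insertions at the 9 genes fed exon 2. The share was 100% for Zc3h7b and Zc3h6, 98.4% for Zc3h14, 98.3% for Zc3h4, 97.6% for Zc3h8, 96.9% for Zc3h3 and 77.8% for Zc3h7a. It was 55.6% for Zc3h18 and 40.0% for Zc3h10, which had 18 and 5 insertions in all. At the main acceptor of each gene the fusion keeps at least 91.6% of the coding sequence, the lowest being Zc3h8, which loses 77 coding bases.

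Other CCCH genes were taken as a list of 44, of which 38 are in the tables and all had background insertions. Among those tested, 1 of 9 was an activator call, 0 of 7 a repressor call and 2 of 20 were PTGR calls, beside the shares of all genes given above. The median log2 odds ratio of those tested was -0.35, -0.58 and 0.32, and of all genes tested -0.14, -0.39 and 0.14. Ppp1r10, the PNUTS subunit that targets protein phosphatase to the nucleus, was called in the activator screen from 6 and 37 sorted insertions against 40 (5.10 ± 0.317, Fisher's exact test, adjusted p = 7.94e-41); without sorted replicate 2 no gene of the list was called there. Zc3hav1, the antiviral RNA-binding protein ZAP, was called in the PTGR screen from 30 and 56 sorted insertions against 333 (1.14 ± 0.175, Fisher's exact test, adjusted p = 2.33e-07). Pan3, a subunit of the PAN2-PAN3 deadenylase, was called there from 11 and 11 against 40 (2.23 ± 0.383, Fisher's exact test, adjusted p = 2.58e-05).

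Neither PTGR call of this list was made against the PTGR unsorted libraries alone or without PTGR sorted replicate 2. For Pan3 the log2 odds ratio was 1.48 ± 0.452 (Fisher's exact test, adjusted p = 0.125) against those unsorted libraries. With each sorted replicate alone it was 2.20 and 2.26 on 11 insertions each, with Fisher adjusted p of 0.00976 and 0.00532. For Zc3hav1 it was 0.94 ± 0.209 (Fisher's exact test, adjusted p = 0.00147) and, without sorted replicate 2, 0.59 ± 0.275 (Fisher's exact test, adjusted p = 0.262). U2af1, a splicing factor, and the helicase gene Helz had the most background insertions besides Zc3hav1, 629 and 403. They were at -0.25 ± 0.192 and 0.30 ± 0.203 in the PTGR screen and were not called.

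Genes whose proteins work with the nuclear members were taken as a second list of 13 (cap-binding complex, exosome targeting, restrictor, little elongation complex), 12 of them in the tables. None was called in any screen, with 1, 1 and 7 tested. The 7 tested in the PTGR screen all had log2 odds ratios above 0, with a median of 1.10 against 0.14 for all genes tested, but a gene is tested there only once it has 3 sorted insertions. Zfc3h1, the zinc finger partner of the exosome in poly(A) RNA decay, had 7 and 12 PTGR sorted insertions against 106 (0.62 ± 0.359, Fisher's exact test, adjusted p = 0.483). Zcchc8, a subunit of the exosome targeting complex, had 1 and 13 against 43 (1.48 ± 0.444, Fisher's exact test, adjusted p = 0.103). Wdr82, which pairs with Zc3h4, had 2 and 0 against 92 and did not reach the minimum.

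Bcor, the corepressor gene whose human counterpart is joined to ZC3H7B in sarcoma, was called in the repressor screen from 11 and 2 sorted insertions against 81 (2.13 ± 0.431, Fisher's exact test, adjusted p = 3.47e-04). The call was not made against the repressor unsorted libraries alone (1.80 ± 0.469, Fisher's exact test, adjusted p = 0.00565), within 50 kb, by the two-sided test or with genes of at least 1 sorted insertion tested. Without sorted replicate 1, 2 sorted insertions were left at Bcor, with 0.73 ± 1.03 as its log2 odds ratio. It was not called in the activator screen, with 1 and 0, nor in the PTGR screen, with 4 and 2. Its relative Bcorl1 had 12 and 19 PTGR sorted insertions against 114 (1.22 ± 0.292), which did not pass at 0.001 (Fisher's exact test, adjusted p = 0.0102).

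Over the 12 libraries, the genes whose log2 rates followed that of Zc3h7b most closely among 5886 genes were Nfe2l1 (Pearson r 0.976), Kmt2c (0.954), Stat6 (0.953), Med15 (0.953) and Rbbp5 (0.950). These encode a bZIP transcription factor, an H3K4 methyltransferase, a signal-activated transcription factor, a Mediator subunit and a core subunit of the H3K4 methyltransferase complexes. All 5 were called in the activator screen, and the 12 points share their libraries and depths, so the likeness is a description of this pattern and not a test. Nfe2l1 had 22 activator sorted, 1 repressor sorted and 13 PTGR sorted insertions against 103 in the background.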

How the data were processed

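Cassette insertions were sequenced by inverse PCR in 12 libraries, 2 for each of 6 groups (3 screens, sorted or unsorted). The study calls these biological replicates. The authors trimmed reads with Trim Galore 0.6.0, aligned first mates to mm10 with Bowtie2 and filtered duplicates and poorly mapped reads with SAMtools 1.9. An insertion was given to the closest downstream non-first exon of a protein-coding transcript. They deposited 24 insertion lists, which give position, exon number and distance, and 3 tables of counts per gene. Reads per insertion are not in the lists. Columns of the authors' own odds ratios, adjusted p-values and hits were not used.

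Each position counted as 1 insertion per library, because in the repressor unsorted libraries 100% of positions were listed more than once. Summed here, the counts equal the deposited counts for all 9 genes in the background, activator and repressor columns and for 5 of 9 in the PTGR sorted column. Over all genes, the PTGR sorted counts were equal for 79.3%, and the activator and repressor sorted counts for 99.99% and 99.96%. The deposited PTGR sorted counts summed to 128486 and those here to 119540. Sorted libraries were summed per screen and tested against the 6 unsorted libraries by one-sided Fisher's exact test, with p-values adjusted (Benjamini-Hochberg) over genes with at least 3 sorted insertions. edgeR 4.0.16 (quasi-likelihood, TMM, at least 10 insertions) tested 2 against 2 libraries and interactions over 12, and DESeq2 1.42.0 was an alternative. Both tests were checked on simulated data. The simulated counts for Fisher's test held no spread between libraries, so that check does not cover genes whose replicates differ. Locations are from GENCODE vM21 and sequences from GRCm38.p6. Named are the 9 genes, the table genes within 200 kb of a called one, list members called or with the most background insertions, and the 5 genes most like Zc3h7b; some genes near Zc3h7b are not reported here. The genes and lists were chosen with earlier results of these data known. Alternatives covered background, distance, repeated positions, thresholds, tests and left-out libraries; those for Zc3h4, the lists and merged or shared positions were chosen after seeing the data.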

Additional observations from a re-analysis of the deposited data

Results flagged for a closer look

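The change of Zc3h7b from unsorted to sorted cells differed between the activator and the repressor screen, by 5.35 on the log2 scale (edgeR interaction, adjusted p = 3.96e-06), with 26 and 20 activator sorted insertions against 1 and 0 repressor sorted ones. That of Zc3h4 differed between the activator and the PTGR screen (activator minus PTGR -4.63, edgeR interaction, adjusted p = 5.28e-04) and between the PTGR and the repressor screen (4.41, edgeR interaction, adjusted p = 0.00181). These were 3 of 21 such differences, 3 for each of the 7 genes with at least 10 insertions. Over all 12809 genes 0.57%, 0.125% and 0.453% passed in these directions.

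PTGR unsorted replicate 2 stood apart from the other unsorted libraries at Zc3h4, with 3.70 insertions per 10000 where the next highest had 1.75 and the lowest 1.36. It was the only such library in 18 sets of 6 unsorted values (9 genes, sense and reversed insertions), and chance gives about 1 in 20. The PTGR sorted library with the same number had the highest rate at Zc3h4 of all 12 libraries, 16.6.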

How the results depend on the processing

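Alternatives were run for the counts of calls and for the exon 2 share at Zc3h7b. They were also run for the tests of Zc3h7b in the activator screen, of Zc3h4 in the PTGR screen, and their differences between screens. Of these alternative values, 224 kept their direction and side of the threshold and 28 did not, none by a change of direction. Among values that were not called, the log2 odds ratio of Zc3h7b in the PTGR screen turned to -0.15 without PTGR sorted replicate 2 and -0.05 without PTGR unsorted replicate 1, and that of Zc3h14 there to 0.53 without PTGR sorted replicate 2. With a library left out they ranged from -0.15 to 0.37 and from -1.73 to 0.53. The log2 odds ratio of Zc3h7b in the activator screen stayed called, from 3.06 against the activator unsorted libraries alone to 4.55 within 50 kb, and from 3.22 to 3.37 with a library left out. By edgeR its fold change was 3.00 to 3.30 with a library left out, and passed only with both unsorted libraries kept. Its difference between the activator and repressor screens was 4.50 to 9.94. Exon 2 received 100% of activator sorted and background insertions under the 7 alternatives run. No other value was possible there, since all 215 insertions at Zc3h7b were assigned to exon 2.

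The Zc3h4 call depended on the test. Members called in the PTGR screen were 0 by edgeR without a replicate block and 0 by DESeq2. They were 0 to 1 with a library left out, 0 being without PTGR sorted replicate 2, and the log2 odds ratio was then 0.99 to 3.33. The edgeR fold change of Zc3h4 passed with all genes of at least 1 insertion (1.94, adjusted p = 2.05e-04) and ranged from 0.56 to 2.87 with a library left out (2.87 without PTGR sorted replicate 1, adjusted p = 9.61e-13). Its differences between screens were then -9.18 to -3.06 for activator minus PTGR and 2.87 to 9.01 for PTGR minus repressor. Where 1 library is left in an arm, edgeR assumes that it varies like the others. The cause of these changes was not tested.

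Of the lists, other CCCH genes had 0 PTGR calls against the PTGR unsorted libraries alone, 1 (Pan3) with positions within 5 bp merged, and 0 to 2 with a library left out; in the activator screen they had 0 to 1. Bcor was lost (0 calls) against the repressor unsorted libraries alone, with at least 1 sorted insertion, within 50 kb and by the two-sided test, and the count was 0 to 1 with a library left out. In the PTGR screen 1 call was gained at an adjusted p below 0.05 (Bcorl1), and 1 (Zcchc8) with every listed line counted. The nuclear partners had 0 to 1 with a library left out.

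The labels give sorted and unsorted libraries the same replicate numbers and nothing that ties them. The paper describes setting aside part of the transduced, selected cells as background before sorting the rest. It does not state that same-numbered libraries are such pairs. At Zc3h4, 8 positions of PTGR sorted replicate 1 recurred in unsorted replicate 1 and 0 in unsorted replicate 2. Of PTGR sorted replicate 2, 12 recurred in unsorted replicate 2 and 2 in unsorted replicate 1. At Zc3h3, 2 positions of repressor sorted replicate 1 recurred in unsorted replicate 2 and 0 in unsorted replicate 1. Whether the numbers mark pairs was not tested. Same-numbered libraries deviated from their group means with correlations of 0.0472, 0.0164 and 0.219 in the activator, repressor and PTGR screens over 5887 genes. With the replicate block, Zc3h4 in the PTGR screen passed (1.65, edgeR adjusted p = 1.07e-07), so that 1 member was called. Zc3h7b in the activator screen was at 3.02 (edgeR adjusted p = 1.86e-10), with 100 genes higher in place of 123. The interaction values of Zc3h7b were 5.35 and 1.82 and those of Zc3h4 -4.12 and 3.92, each on the same side of the threshold as before. Depth limits the genes with few background insertions: at Zc3h7a a call in the activator screen needed 5 sorted insertions where 0.188 were predicted.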
